A study of Bos taurus with 8 samples.

Results

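The genes described here are the histone genes of a bovine expression array, split into the replication-dependent genes of histone clusters 1, 2 and 3 and the variant genes that lie outside those clusters. They were taken by the text of the array's gene descriptions, which name a histone cluster, an H1, H2A, H2B or H3 histone, or a histone family member. That rule found 99 probes for 73 gene names, out of 51282 non-control probes and 32429 gene names in all. Of the 73 genes, 61 were replication-dependent (71 probes) and 12 were variants (28 probes), and 41 could be matched to a current bovine gene in RefSeq. By description, the replication-dependent genes comprised 56 of cluster 1, 3 of cluster 2 and 2 of cluster 3. By type they were 6 H1, 18 H2A, 31 H2B, 3 H3 and 2 H4 genes, and 1 described only as H2.

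Histones package DNA into nucleosomes, each a core of H2A, H2B, H3 and H4 closed by a linker H1. Replication-dependent histone genes lie in clusters, have no introns and are switched on in S phase, and their mRNAs characteristically end in a conserved stem-loop in place of a poly(A) tail. Variant histones are encoded by single genes, are made through the cell cycle or in non-dividing cells, carry poly(A) tails, and replace the standard histones at particular places such as promoters, damaged DNA or silenced chromatin.

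Each of 8 one-colour arrays measured 1 RNA sample labelled as fetal cotyledon, the tuft of placenta by which a ruminant fetus attaches to its mother. Of these, 4 were labelled pregnant, with a description that places the expression after pregnancy, and 4 non-pregnant, with a description that places it before pregnancy. All 8 were labelled female and Bos taurus, but the protocol shared by all of them describes gravid buffalo uteri collected at slaughter. No age, stage or treatment was given for either group, and no label says that the 4 samples of a group came from separate animals, so a p-value here speaks only to how far these samples vary, and that variation may be technical. RNA was copied from an oligo-dT primer, which starts on poly(A). How far histone mRNAs that lack a poly(A) tail were copied was not tested, so a level below need not be that of such mRNAs.

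The group labels and the tissue did not match. All 8 trophoblast marker genes and all 6 erythroid markers fell in the arrays labelled pregnant, whereas all 6 endometrial markers tested, 5 of 6 leukocyte markers and 4 of 5 smooth muscle markers rose there. The summed trophoblast signal (log2 of the sum, relative to the array) was -1.26 to 1.1 on arrays labelled pregnant and 9.14 to 9.73 on arrays labelled non-pregnant, with CDX2 and PLAC1 well above background on no array labelled pregnant. The summed endometrial signal was 6.82 to 7.98 on arrays labelled pregnant and 0.095 to 1.27 on arrays labelled non-pregnant, with ESR1 and HOXD10 well above background on no array labelled non-pregnant. Every histone difference below lies between samples that also differed in these markers, whose part in the histone results was not tested. In bulk tissue, fewer cells of a type and less RNA per cell cannot be told apart. The group names below are therefore those of the labels only. All arrays were on 1 slide, and each group filled its own row of it, so that slide row and group cannot be told apart. Array 4 of the pregnant label stood apart, correlating at 0.943 to 0.951 with its group's other arrays, which correlated at 0.977 to 0.989 among themselves. Without it 23 replication-dependent histone genes were called lower, against 25 with it.

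A level here is the log2 processed signal minus the array's 75th percentile, and a difference is the mean level on arrays labelled pregnant minus the mean on arrays labelled non-pregnant. Levels of different genes come from different probes and are not compared. Of 32429 gene names, 21498 were tested because their brightest probe was well above background on at least 4 of 8 arrays. A gene was called where limma's p, adjusted over all tested probes, was under 0.05. Calls were made for 60.8% of all genes tested, 29.7% lower and 31.1% higher, and the groups' values did not overlap for 57.6%, so that a call by itself was common on these arrays. The median difference of all genes tested was 0.067.

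The probes that carry a stem-loop show where on the mRNA the array looks. A search for a stem of 6 bases that starts with GG, a loop of 4 bases and the complementary stem found such a 16-base hairpin in 57 of the 51282 probes and in 9 of the 99 histone probes. The 30 bases of each histone probe that hold it are given here 5′ to 3′ in the mRNA sense, with the hairpin in capitals. The stem-loop sets the ends of replication-dependent histone mRNAs apart. Whether the signal of these probes came from mRNAs that end there or from longer ones with poly(A) was not tested. The 4 below share the same 16 bases.
HIST1H2AG: tcaaaccaaaGGCTCTTTTCAGAGCCactt
XM_002697498: gaaaaaaccaacGGCTCTTTTCAGAGCCaa
XM_599845: aacccaaaGGCTCTTTTCAGAGCCactcac
XM_865148: tcttagccaaaGGCTCTTTTCAGAGCCacc
These 3 share another 16.
XM_002697505: ttacccaaaGGCTCTTTTAAGAGCCatcca
XM_002697520: ctaaccccaaaGGCTCTTTTAAGAGCCacc
XM_608099: aaataactcaaGGCTCTTTTAAGAGCCacc
The last pair are an H3 gene and the variant gene H2AFX, each with a hairpin of its own.
XM_591827: cgaaaaaGGCTCTTCTAAGAGCCacccaca
H2AFX: ccacaaaGGCCCTTTTAAGGGCCaccacag

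Replication-dependent histone genes were lower on arrays labelled pregnant. Of the 61 genes, 36 could be tested, and 19 of the other 25 were well above background on no array. Of the 36, 25 fell (69.4%, against 29.7% of all genes tested), 1 rose (2.78%, against 31.1%) and 10 were not called. Among the 25, ENSBTAT00000063485, XM_002697468, XM_002697498 and XM_591827 passed the filter only through arrays labelled non-pregnant. For them a lower call was close to fixed by the filter. When all 8 arrays had to read a probe well above background, 28 of these genes were tested and 20 were lower. Over all genes, 5145 were then lower and 5233 higher. The groups' values did not overlap for 23 of the 36, 22 of them lower, where 28.7% of all genes tested were lower without overlap. Their median difference was -1.70, and 31 of 36 differences were negative. By description, cluster 1 gave 21 lower and 1 higher of 31 tested. Cluster 2 gave 3 lower of 3, and cluster 3 gave 1 lower of 2. The descriptions may misplace some genes. Of 18 genes described as cluster 1 that had coordinates, 15 lay on chromosome 23. XM_002688488, described as cluster 1, was matched to the same RefSeq gene as HIST3H2BB of cluster 3. Counts of clusters by RefSeq match were not made.

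**Figure D1:**
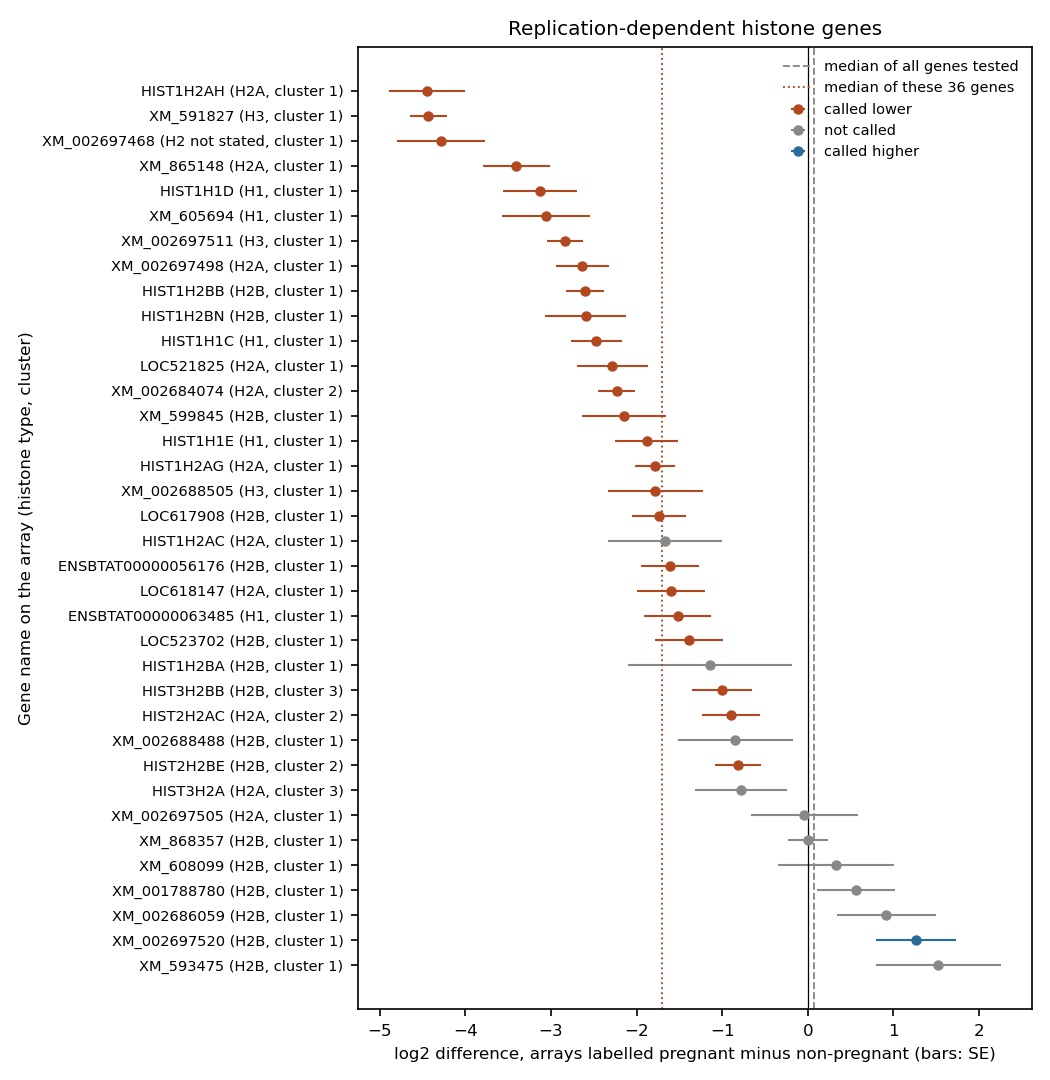
Log2 difference (x axis, labelled pregnant minus non-pregnant, bars are the SE of limma's fit, n = 4 arrays a group) for the 36 replication-dependent histone genes tested (y axis, by size). The dotted line marks their median of -1.70 and the dashed line the median of all genes tested, 0.067. 25 genes were called lower and XM_002697520 alone was called higher.

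Linker histone H1 genes, whose products bind the DNA that enters and leaves the nucleosome, fell in all 5 tested of 6. HIST1H1D (H1-3 in RefSeq) had levels of 0.75, 2.10, 1.45 and -0.08 on arrays labelled pregnant and 3.72, 4.25, 4.42 and 4.33 on arrays labelled non-pregnant. The groups were well apart, with array 4 of the pregnant label lowest. Its difference was -3.13 ± 0.43 (SE, adjusted p 0.000268), and its other 2 probes, 2.8 kb away on chromosome 23 in the Btau_3.1 build of the files, gave -2.74 and -2.76. Those 2 share 53 bases and are not independent readings. Whether they read the same transcript as the brightest probe was not tested. XM_605694 (H1-5) had levels of -3.41, -2.83, -3.49 and -4.93 on arrays labelled pregnant and -0.70, -0.72, 0.45 and -1.45 on arrays labelled non-pregnant, a difference of -3.06 ± 0.51 (adjusted p 0.000832). HIST1H1C (H1-2) averaged -2.15 ± 0.56 on arrays labelled pregnant and 0.31 ± 0.25 on arrays labelled non-pregnant (SD, n = 4 each), 5.54-fold lower (adjusted p 0.000107). HIST1H1E, matched to H1-12 in RefSeq, averaged 0.16 ± 0.63 on arrays labelled pregnant and 2.04 ± 0.52 on arrays labelled non-pregnant (SD, n = 4 each; adjusted p 0.00201). The fifth, ENSBTAT00000063485, was well above background on no array labelled pregnant and was at least 2.69-fold lower there (adjusted p 0.00912).

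H2A genes fell in 8 of 11 tested, and all 11 differences were negative. HIST1H2AH had levels of -4.57, -3.86, -4.23 and -4.61 on arrays labelled pregnant and 0.76, 0.46, 0.60 and -1.29 on arrays labelled non-pregnant. The groups did not overlap, and array 4 of the non-pregnant label was below its group. The difference was -4.45 ± 0.44, 21.9-fold lower (adjusted p 3.74e-05). The probe of XM_002697498 (H2AC12), which ends in the stem-loop, shares 45 of its 60 bases with that of HIST1H2AH, so that the pair are not independent readings. XM_002697498 was well above background on no array labelled pregnant and at least 5.97-fold lower there (adjusted p 9.83e-05), but with a normexp background correction its difference was -0.59 (adjusted p 0.0553).

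XM_865148, another H2A gene read at its stem-loop, had levels of -0.85, -2.10, -2.79 and -1.76 on arrays labelled pregnant and 1.95, 1.45, 1.63 and 1.1 on arrays labelled non-pregnant. Its difference was -3.41 ± 0.39 (adjusted p 8.79e-05), with the first array of the pregnant label nearest to the other group. LOC521825 fell by 2.28 ± 0.42 on the log2 scale (adjusted p 0.00135), with levels of -0.87, -2.14, -2.66 and -2.12 on arrays labelled pregnant and 0.20, 0.15, 1.14 and -0.14 on arrays labelled non-pregnant. Its probe shares 24 bases with 2 probes of HIST1H2AG. XM_002684074 (H2AC19, of cluster 2) had levels of 3.92, 4.11, 3.94 and 3.90 on arrays labelled pregnant and 6.68, 6.23, 6.04 and 5.84 on arrays labelled non-pregnant. It was 4.70-fold lower there (adjusted p 2.91e-05). Cluster 2's other H2A gene, HIST2H2AC (H2AC20), fell by 0.90 ± 0.33 (adjusted p 0.0439), and its groups overlapped. HIST1H2AC, HIST3H2A and XM_002697505 were not called, with differences of -1.66 ± 0.67, -0.78 ± 0.54 and -0.04 ± 0.62. The gene described only as H2, XM_002697468 (H2AC15 in RefSeq), was well above background on no array labelled pregnant and at least 19.5-fold lower there (adjusted p 0.00011). That bound equals its plain fold, because its own signals on those arrays were used. Its difference was -4.28, and -1.58 with the normexp correction.

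The probes named HIST1H2AG (H2AC14) gave different answers at different positions. They lie within 31057831 to 31058038 of chromosome 23 (Btau_3.1, plus strand; no exon annotation was used here). The 3 overlapping probes upstream are shown with the 28 bases common to all in capitals. The first and second share 54 of 60 bases, and the third shares 28 with the first and 34 with the second.
A_73_P165502: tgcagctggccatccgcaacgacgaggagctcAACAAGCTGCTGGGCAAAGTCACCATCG
A_73_P062706: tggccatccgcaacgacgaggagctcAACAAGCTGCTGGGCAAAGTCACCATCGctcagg
A_73_P062661: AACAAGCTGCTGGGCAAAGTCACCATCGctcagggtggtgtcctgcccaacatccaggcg
The first and brightest, A_73_P165502, had levels of 3.07, 2.70, 2.51 and 2.33 on arrays labelled pregnant and 4.57, 4.29, 4.80 and 4.09 on arrays labelled non-pregnant, a difference of -1.79 ± 0.24 (adjusted p 0.000207). The second gave -1.70 ± 0.26 and the third, 32 bases downstream of the first, -0.77 ± 0.23 (adjusted p 0.0166). The 4th probe, which starts 148 bases downstream of the first and ends in the stem-loop, had levels of -5.84, -6.69, -7.54 and -7.50 on arrays labelled pregnant, where it was well above background on none, and 0.17, -0.32, 2.46 and -0.67 on arrays labelled non-pregnant. It was at least 135-fold lower on arrays labelled pregnant (adjusted p 2.56e-05). The same gene name thus held differences from 1.71-fold to at least 135-fold lower within 208 bases. Whether all 4 probes read 1 transcript was not tested.

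H2B genes were split. Of 16 tested, 8 fell, 1 rose and 7 were not called, and 13 of the 31 H2B names were well above background on no array. HIST1H2BB, described on the array as H2bn and matched to H2BC15 in RefSeq, had levels of 1.78, 1.92, 1.76 and 1.76 on arrays labelled pregnant and 4.80, 4.50, 4.49 and 3.86 on arrays labelled non-pregnant. It was 6.09-fold lower (adjusted p 1.51e-05), and its other probe gave -2.65 against -2.61. HIST1H2BN (H2BC12) had levels of -1.88, -2.42, -3.50 and -3.01 on arrays labelled pregnant and -0.85, -0.64, 0.07 and 1.0 on arrays labelled non-pregnant, a difference of -2.59 ± 0.47 (adjusted p 0.00136). Its probe lies 1046 bases from that of HIST1H2AH on the opposite strand, and both genes of this divergent pair fell. XM_599845 fell by 2.15 ± 0.49 (adjusted p 0.00492), with levels of -0.68, -2.33, -3.31 and -2.57 on arrays labelled pregnant and 0.29, -0.03, -0.17 and -0.39 on arrays labelled non-pregnant.

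AATAAA, the poly(A) signal, was held by 5 of the 71 replication-dependent probes (7.0%, against 8.4% of all probes). The probes of HIST1H2AH and XM_002697498 hold it, and so does the brightest probe of HIST2H2BE (H2BC21). HIST2H2BE had levels of 4.15, 4.34, 4.12 and 3.21 on arrays labelled pregnant and 4.81, 4.74, 5.02 and 4.52 on arrays labelled non-pregnant. Its difference was small, -0.82 ± 0.27 (adjusted p 0.0267), and the call was lost without non-pregnant array 1 (-0.81, adjusted p 0.0529), 2 (-0.83, adjusted p 0.0557) or 3 (-0.74, adjusted p 0.0667), with the percentile taken over detected probes (-0.61) and with quantile normalization (-0.26). Its other 2 probes gave -1.34, called lower, and -0.40, not called. HIST2H2BE stands 2831 bases from HIST2H2AC on the opposite strand, and both of that pair were called lower. In cluster 3, HIST3H2BB (H2BC26) fell by 1.0 ± 0.35 (adjusted p 0.0338) while its divergent neighbour HIST3H2A, 1976 bases away, was not called by either of its probes. XM_002688488, matched to the same RefSeq gene as HIST3H2BB, gave -0.85 ± 0.67 and was not called.

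The single gene that rose was XM_002697520 (H2BC4), named here after its values were seen. Its levels were 2.19, 0.87, 0.14 and 0.68 on arrays labelled pregnant and -0.05, 0.12, -0.02 and -1.22 on arrays labelled non-pregnant. The first array of the pregnant label stood highest and the third lay next to the other group. The difference was 1.26 ± 0.46 (adjusted p 0.0416), and no replication-dependent gene was called higher when either array 1 or 2 of the pregnant label, or array 1, 2 or 4 of the non-pregnant label, was left out, or when arrays were scaled to their median or not scaled. The other H2B genes with a positive difference were not called. They were XM_608099 at 0.33 ± 0.67, XM_001788780 at 0.56 ± 0.45, XM_002686059 at 0.92 ± 0.58 and XM_593475 at 1.52 ± 0.73.

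All 3 H3 genes fell. XM_591827 had levels of -7.25, -6.92, -7.56 and -7.72 on arrays labelled pregnant, well above background on none, and -2.72, -3.06, -2.91 and -3.04 on arrays labelled non-pregnant, well above background on all 4. It was at least 17.1-fold lower on arrays labelled pregnant (adjusted p 7.89e-07), and its difference of -4.43 became -1.19 with the normexp correction. XM_002697511 had levels of -3.97, -4.16, -3.66 and -4.37 on arrays labelled pregnant and -1.0, -1.13, -1.30 and -1.40 on arrays labelled non-pregnant, 7.13-fold lower (adjusted p 6.11e-06), with a difference of -2.83 that became -1.83 with the normexp correction. XM_002688505 (H3-4) fell by 1.78 ± 0.55 (adjusted p 0.0209). Its groups overlapped because the first array of the pregnant label, at -4.46, was as high as the other group. Only 1 array labelled pregnant read XM_002688505 well above background, so the size of its fall is uncertain. Neither H4 gene taken by the rule could be tested. A wider text rule, which also took descriptions such as histone H4 that lack the word cluster, added 17 H4 names, of which 13 were tested, 6 fell and none rose. The gene named H4 fell by 3.90 ± 0.31 (adjusted p 9.79e-06). Over all types that rule added 40 replication-dependent gene names, of which 29 were tested. Of these, 17 fell (58.6%, against 29.7% of all genes tested) and none rose (against 31.1%), with a median difference of -1.23. Whether some of these names read transcripts already counted was not tested.

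The 9 stem-loop probes did not all fall, and 6 were called lower. They were the 4 of the first set shown, with differences of -7.30 (HIST1H2AG, not well above background on arrays labelled pregnant), -3.41 (XM_865148), -2.63 (XM_002697498) and -2.15 (XM_599845), and both probes with a hairpin of their own, at -4.43 (XM_591827) and -1.49 (H2AFX). The 3 of the second set gave -0.04 (XM_002697505), 0.33 (XM_608099) and 1.26 (XM_002697520). The H2AFX probe has the same loop as that second set and another stem. One further tested probe outside the histone genes by this rule, EE245097, holds the same 16 bases as the second set and gave 1.25 ± 0.43 (adjusted p 0.0325). These sets were formed after the values were seen, they hold few probes, several of which share 20 bases or more around the hairpin, and the difference between sets was not tested. The probe of XM_002697520 shares 23 bases with that of XM_002697505 and 21 with that of XM_608099, so these are not independent readings. Among the replication-dependent genes whose brightest probe held no hairpin, 21 of 29 fell and none rose.

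Within the arrays labelled pregnant, replication-dependent histone genes were uneven. Array 1 was the highest of the 4 for 19 of 36 genes (52.8%, against 31.8% of all genes tested). It stood at least 1 log2 unit above the mean of the other 3 for 17 of 36 (47.2%), as it did for 4.82% of all genes tested. The median level of the 36 genes was -0.86, -1.76, -2.35 and -2.34 on arrays 1 to 4 labelled pregnant and -0.42, -0.09, 0.16 and -0.73 on arrays 1 to 4 labelled non-pregnant. Among the 11 variant genes array 1 stood this far above the others for 1. Among the 7 genes read at a stem-loop it did so for 5, among them XM_608099, at -1.64 on array 1 and -4.07, -4.98 and -3.22 on the others, and XM_002697505, at 1.30 and then -0.37, -1.49 and -1.11. Without that array 25 replication-dependent genes were called lower and the median difference was -1.94.

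**Figure D2:**
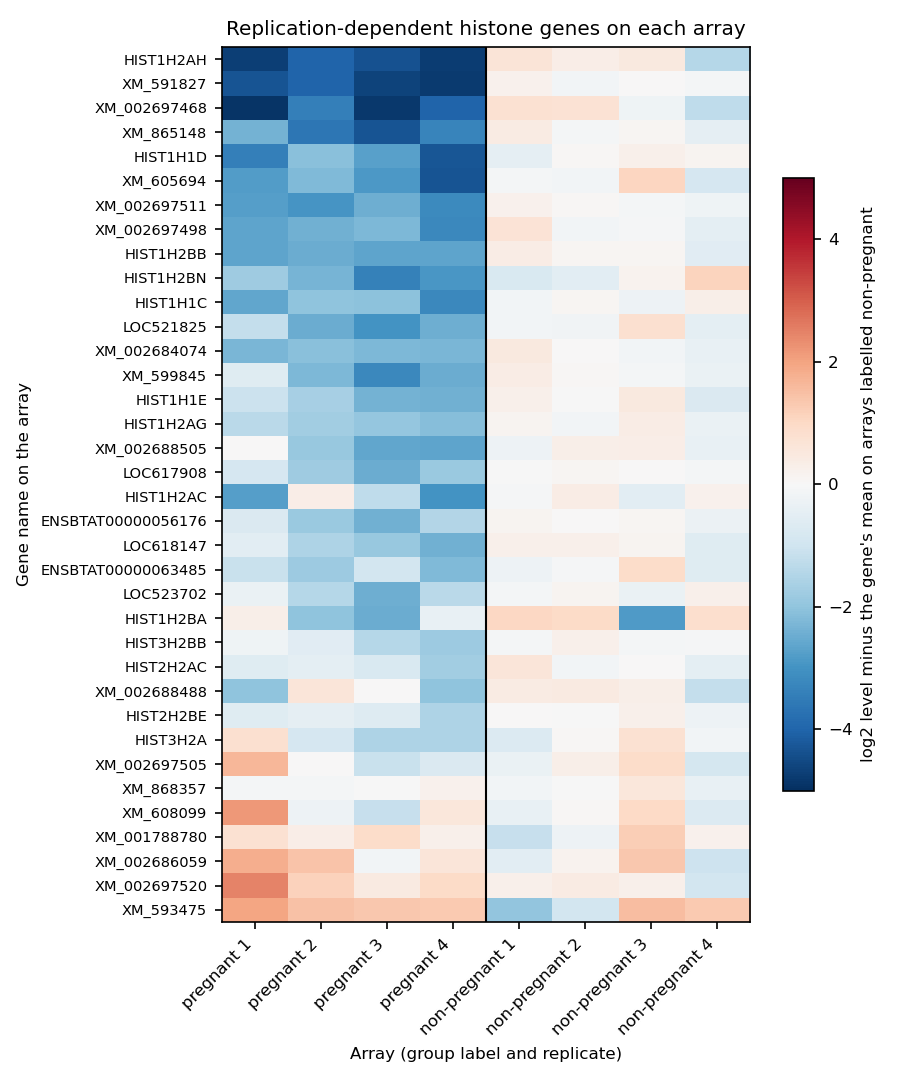
Level of each of the 36 replication-dependent histone genes tested (rows, in the order of their difference) on the 8 arrays (columns, the 4 labelled pregnant on the left), as log2 units above (red) or below (blue) that gene's mean on arrays labelled non-pregnant. Most rows are blue on the left, and array 1 of the pregnant label is paler than its 3 neighbours in many of them. It stood at least 1 unit above their mean for 17 genes.

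Variant histone genes moved in both directions. Of 12, 11 were tested (the oocyte linker histone H1FOO was not), 5 fell (45.5%, against 29.7% of all genes tested), 1 rose (9.09%, against 31.1%) and 5 were not called, with a median difference of -0.34. The share called in either direction, 54.5%, was near the 60.8% of all genes tested. All 4 that fell among the 6 H2A variants did so at every probe tested. H2AFX (H2AX), the variant that is phosphorylated at DNA breaks, had levels of 1.71, 2.15, 2.15 and 2.10 on arrays labelled pregnant and 4.58, 4.31, 4.36 and 4.10 on arrays labelled non-pregnant. The groups lay more than 1 log2 unit apart, and the gene was 4.95-fold lower (adjusted p 1.27e-05). Its other probe, 704 bases away on chromosome 15 and upstream on this minus-strand gene, holds the stem-loop shown above and gave -1.49 ± 0.38 (adjusted p 0.00869). H2AX mRNA is known to occur both with a stem-loop end and with a poly(A) tail.

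H2A.Z is the variant placed at promoters and is made from a pair of genes. H2AFZ (H2AZ1) had levels of 3.49, 3.76, 3.68 and 3.19 on arrays labelled pregnant and 5.86, 5.58, 5.80 and 5.33 on arrays labelled non-pregnant, 4.33-fold lower (adjusted p 3.35e-05). Its 3 probes gave -1.95 to -2.16. H2AFV (H2AZ2) had levels of 5.23, 5.5, 5.33 and 4.96 on arrays labelled pregnant and 6.58, 6.47, 6.52 and 5.82 on arrays labelled non-pregnant, 2.13-fold lower (adjusted p 0.00295), with 3 probes between -1.09 and -1.27. With quantile normalization the difference of H2AFV was -0.51 (adjusted p 0.0332).

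The macroH2A genes, whose products carry a large extra domain and mark silenced chromatin, went opposite ways. H2AFY2 (MACROH2A2) had levels of 1.74, 0.79, 1.24 and -0.21 on arrays labelled pregnant and -3.24, -2.85, -2.33 and -2.36 on arrays labelled non-pregnant. Every array labelled pregnant was above every other, and the gene was 12-fold higher (difference 3.59 ± 0.41, adjusted p 8.82e-05). This call rests on 1 probe, since the other, 15.1 kb upstream on chromosome 28, was well above background on no array. H2AFY (MACROH2A1) had levels of 3.65, 3.40, 3.45 and 3.47 on arrays labelled pregnant and 5.14, 4.84, 4.92 and 4.54 on arrays labelled non-pregnant, 2.58-fold lower (adjusted p 0.000244). All 4 of its probes, which span 47.4 kb of chromosome 7, were called lower, at -0.73 to -1.37, and with quantile normalization its difference was -0.84. H2AFJ, the remaining H2A variant, was at -0.25 ± 0.28 and not called.

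The 3 H3 variant genes gave small differences. Of these, H3F3A and H3F3B are the genes of H3.3, the H3 variant deposited outside replication. H3F3A (H3-3A) had levels of 7.12, 7.11, 7.03 and 6.62 on arrays labelled pregnant and 7.70, 7.02, 6.90 and 6.37 on arrays labelled non-pregnant. The groups overlapped, the difference was -0.03 ± 0.29 (adjusted p 0.943), and none of its 3 probes was called, the highest at 0.51. H3F3B (H3-3B) had levels of 5.68, 5.86, 5.95 and 5.55 on arrays labelled pregnant and 6.58, 6.55, 6.57 and 6.41 on arrays labelled non-pregnant, a difference of -0.77 ± 0.17 (adjusted p 0.00406). Of its 4 probes 3 were called lower and 1 was at -0.04, and the call was lost with quantile normalization (-0.28, adjusted p 0.213). Averaged over its probes its difference was -0.48, and without scaling it was -1.21. H3F3C (H3-5) had levels of 5.04, 5.07, 5.16 and 4.56 on arrays labelled pregnant and 5.28, 5.29, 5.42 and 5.20 on arrays labelled non-pregnant, and its difference of -0.34 ± 0.19 was not called. It was called lower with median scaling (-0.71, adjusted p 0.0178) and without scaling (-0.78, adjusted p 0.0161), and was 0.29 with quantile normalization.

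H1FX (H1-10), a linker histone encoded outside the clusters, had levels of 6.90, 6.82, 6.64 and 6.57 on arrays labelled pregnant and 3.28, 5.05, 6.83 and 6.38 on arrays labelled non-pregnant. Its difference of 1.35 ± 0.68 was not called, and it was 0.65 (adjusted p 0.203) without non-pregnant array 1 and 1.83 (adjusted p 0.0390) without non-pregnant array 3. Its probe is 86.7% G or C. The 83 tested probes with at least 80% G or C had medians of -0.76, -0.80, -0.89 and -0.97 on arrays labelled pregnant and -2.15, -1.63, -0.26 and -1.10 on arrays labelled non-pregnant, the same order as H1FX over the non-pregnant arrays.

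**Figure D3:**
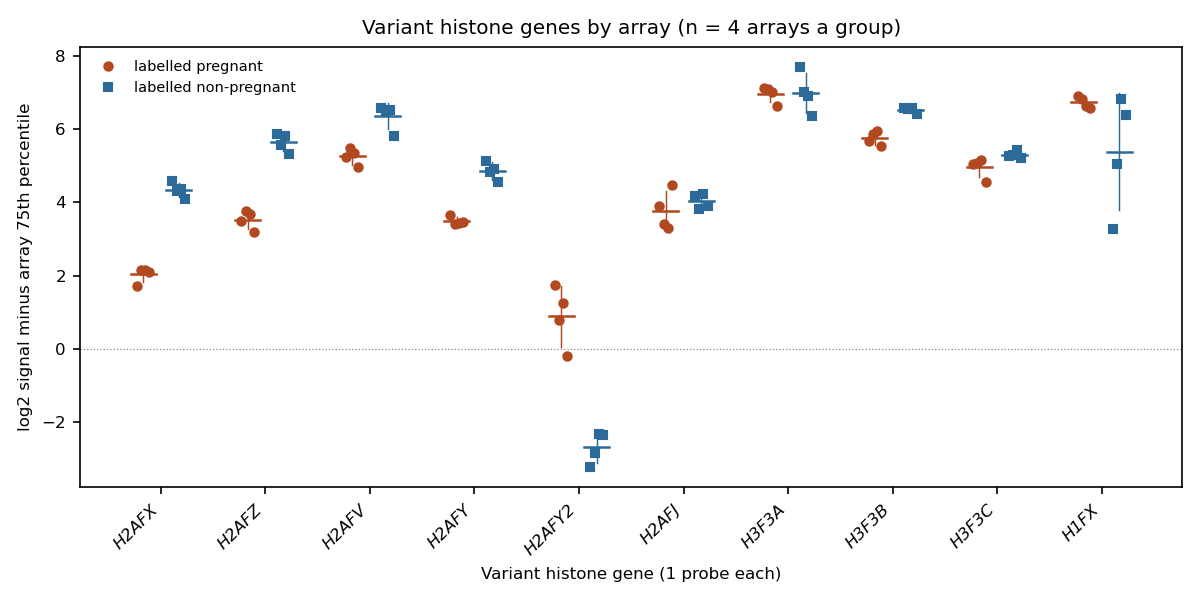
Level (y axis, log2 signal minus the array's 75th percentile) of 10 variant histone genes tested (x axis) on each array labelled pregnant (circles, left) and non-pregnant (squares, right). Horizontal bars are means and vertical bars SD (n = 4 arrays a group). H2AFY2 alone is clearly higher on the left, and H1FX spreads from 3.28 to 6.83 on arrays labelled non-pregnant.

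Of 15 genes with several probes, 12 had more than 1 tested. All tested probes of 7 were called lower, and none of the 12 genes had a probe called higher. Over all histone probes, 70 were tested, 48 were called lower and 2 higher. At their brightest probe, 29.7% of all genes tested were called lower and 31.1% higher. The tested probes of a gene differed by at most 0.38 log2 units for HIST1H1D, HIST1H2BB, HIST3H2A, H2AFZ and H2AFV. Among these, 2 probes of HIST1H1D share 53 bases and 2 of H2AFZ share 36.

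**Figure D4:**
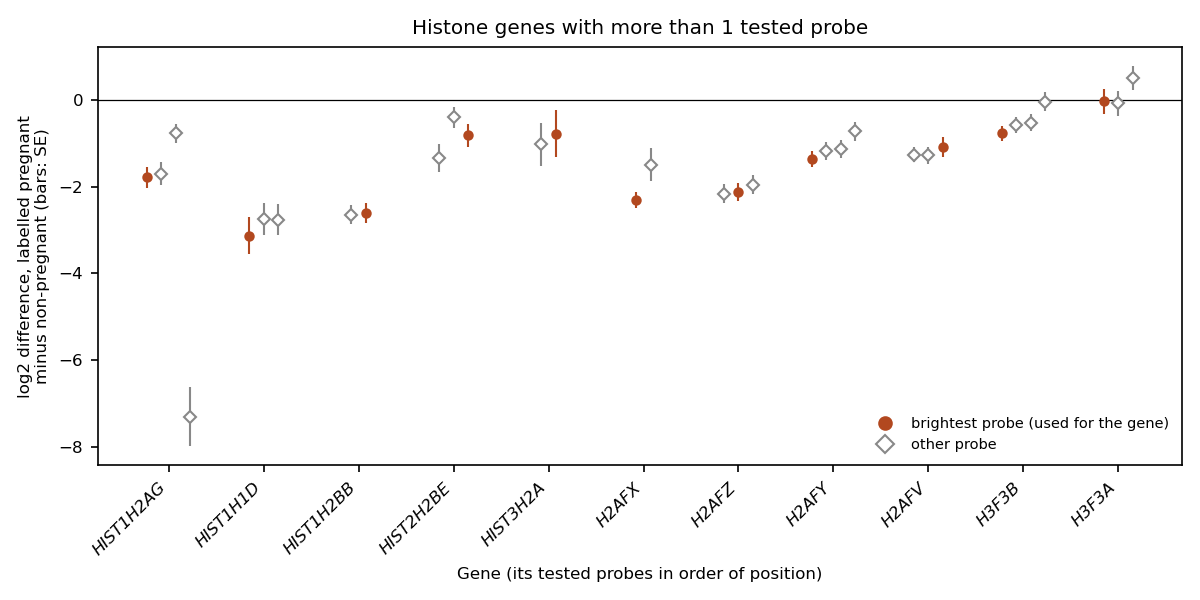
Log2 difference (y axis, labelled pregnant minus non-pregnant, bars are SE) for each tested probe of 11 histone genes with more than 1, in order of position. Filled circles are the brightest probe, which stands for the gene, and open diamonds the others. The stem-loop probe of HIST1H2AG, at -7.30, was not well above background on arrays labelled pregnant.

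The proteins that make, process and place histones were read from lists of known genes. Of 14 genes for histone mRNA control, 10 were found by name on the array. Of these, 9 fell (90.0%, against 29.7% of all genes tested) and none rose (against 31.1%). SLBP, which binds the stem-loop, had levels of 2.88, 2.65, 2.77 and 2.64 on arrays labelled pregnant and 3.61, 3.62, 3.88 and 3.62 on arrays labelled non-pregnant, 1.93-fold lower (adjusted p 0.00107). Its difference of -0.95 was -0.57 with quantile normalization. LSM10, a subunit of the U7 particle that cuts histone pre-mRNA, fell by 1.84 ± 0.22 (adjusted p 0.000113). CSTF2, a cleavage factor shared with polyadenylation, fell by 1.80 ± 0.37 (adjusted p 0.00249). NPAT, which activates histone genes in S phase, was not found under that name and was not analysed here.

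Of 31 histone chaperone and exchange genes, 28 were on the array by name. Of these, 14 fell (50%, against 29.7% of all genes tested), 4 rose (14.3%, against 31.1%) and 10 were not called. The share called, 64.3%, was near the 60.8% of all genes tested. The largest falls were those of ASF1B, NASP and CHAF1A. ASF1B, which hands H3 and H4 to assembly factors, had levels of -2.73, -2.48, -2.52 and -2.90 on arrays labelled pregnant and 1.23, 0.86, 0.90 and 0.73 on arrays labelled non-pregnant, 12-fold lower (adjusted p 1.16e-06). NASP, which holds the pool of free H3 and H4, was 5.40-fold lower (adjusted p 1.55e-05). CHAF1A and CHAF1B, subunits of the factor that assembles nucleosomes behind the replication fork, fell by 2.19 ± 0.21 and 1.66 ± 0.27 (adjusted p 2.61e-05 and 0.000757). ASF1A fell by 0.53 ± 0.21, at the edge of the threshold, and the call was lost in 13 of 22 other settings, among them leaving out array 1, 2 or 3 of the pregnant label or 1, 2 or 4 of the non-pregnant label (-0.40 to -0.56).

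The partners that place H3.3 did not move together. HIRA, of the complex that deposits H3.3 in active genes, was at -0.13 ± 0.29 and not called, whereas UBN2 and CABIN1, which bind it, rose by 1.33 ± 0.32 (adjusted p 0.0065) and 1.30 ± 0.24 (adjusted p 0.00155), although UBN2 averaged over its probes gave 0.19 and was not called. UBN1, another partner of HIRA, fell by 1.39 ± 0.47 (adjusted p 0.0301) and was named after its value was seen. Only 1 array labelled pregnant read UBN1 well above background, and its groups overlapped. DAXX, which deposits H3.3 in silenced chromatin, fell by 1.02 ± 0.18 (adjusted p 0.00107). ATRX, its partner, had levels of 3.73, 3.78, 3.74 and 3.14 on arrays labelled pregnant and 3.28, 2.72, 2.71 and 2.15 on arrays labelled non-pregnant and was called higher (0.89 ± 0.27, adjusted p 0.0201). That call was lost without array 1 (0.84, adjusted p 0.0508), 2 (0.82) or 3 (0.84) of the pregnant label, and with median scaling (0.52) or no scaling (0.44). NAP1L1, a chaperone of H2A and H2B, rose by 0.94 ± 0.25 (adjusted p 0.0092), but with median scaling or none it was at 0.58 and 0.5 and not called. CENPA, the centromeric H3, and its chaperone HJURP were not found by name and were not analysed here.

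Of 22 S phase and proliferation genes, 19 were on the array by name. Of these, 17 fell (89.5%, against 29.7% of all genes tested) and none rose (against 31.1%). Their median difference was -2.24, against 0.067 for all genes tested. RRM2, a subunit of the enzyme that makes DNA precursors, had levels of -3.70, -2.70, -2.97 and -6.06 on arrays labelled pregnant, of which 3 read it well above background, and on arrays labelled non-pregnant, all of which did, levels of 2.95, 2.78, 3.31 and 2.75 (adjusted p 2.98e-05). CDC6, which licenses replication origins, was well above background on no array labelled pregnant and at least 73.1-fold lower there (adjusted p 1.62e-07), with a difference of -6.57 that became -2.87 with the normexp correction. CCNE1, the cyclin that starts S phase, was 29.5-fold lower (adjusted p 6.58e-07). The differences of RRM2 and CCNE1 were -6.81 and -4.88. RRM1 (-1.12 ± 0.45) and GMNN (0.86 ± 0.34) were not called, and MKI67 was not found by name and was not analysed here.

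**Figure D5:**
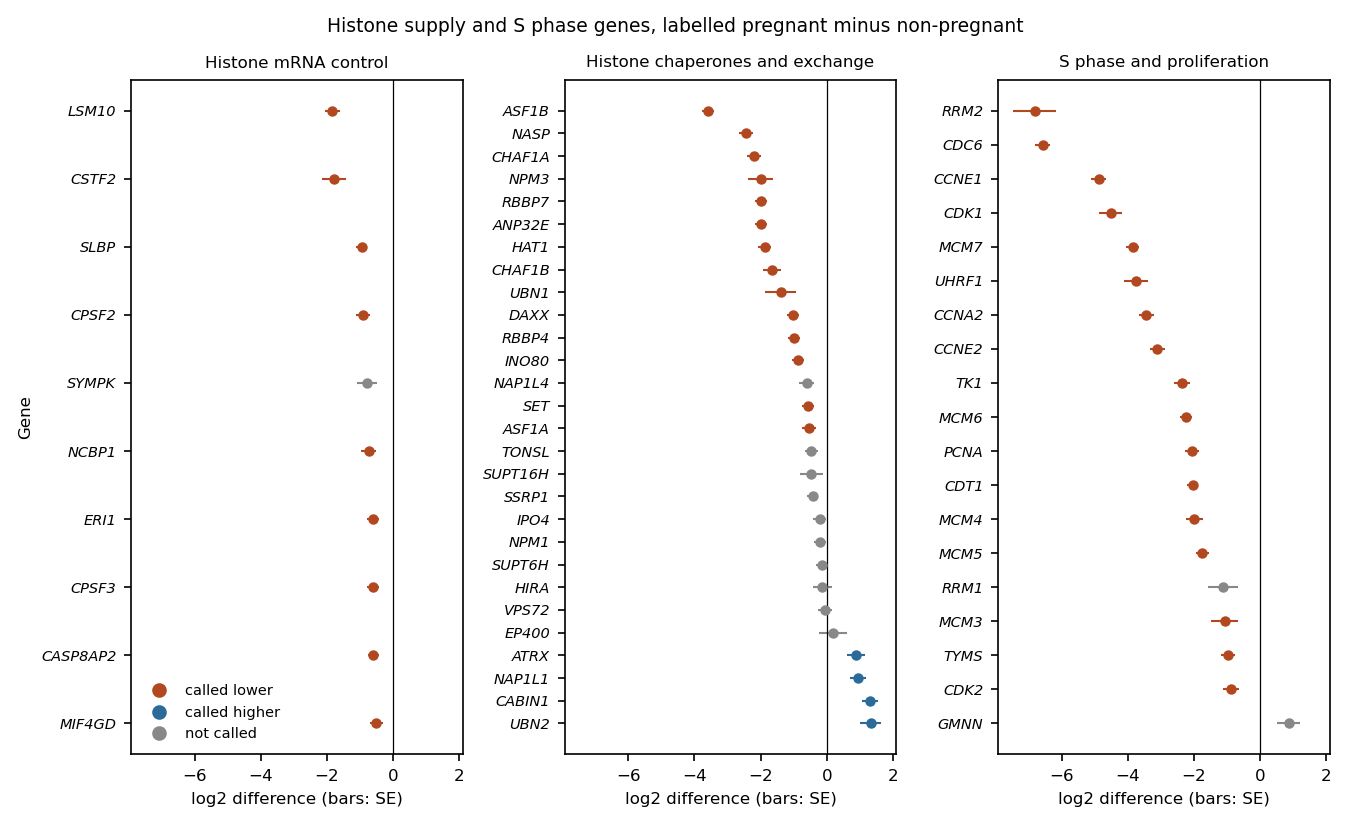
Log2 difference (x axis, labelled pregnant minus non-pregnant, bars are SE, n = 4 arrays a group) for the genes of the 3 lists found on the array. Nearly all genes of the left and right panels lie below 0, and ATRX, NAP1L1, CABIN1 and UBN2 in the middle panel are the 4 called higher.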

How the data were processed

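The authors deposited 1 scanner file per array and a table of processed values. Per the file headers, the files were made with Feature Extraction 11.5.1.1 on Btau_3.1 coordinates, and their processed signal is an intensity, already background-corrected. The deposited table holds log2 values whose scale is not stated. It correlated with log2 signal minus the array's 75th percentile at 0.99936 or above, and each column's median was -3.56 to -4.21.

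Here the log2 of the processed signal, averaged over spots of a probe after leaving out control spots and outlier flags, was centred on the 75th percentile over non-control spots. That percentile was a signal of 689 to 1157 on arrays labelled pregnant and 956 to 1515 on arrays labelled non-pregnant, and 60.6% to 69.5% of probes were well above background on an array. Arrays correlated at 0.943 to 0.989 within a group and 0.736 to 0.783 between groups. The number of arrays, 4 a group, limits the precision.

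A probe entered the test when 4 or more of the 8 arrays read it well above background, which left 34630. Differences were fitted by lmFit and eBayes of limma (version 3.58.1, R 4.3.3), and p-values were adjusted over all these probes by Benjamini-Hochberg. The fit was tested on simulated data. A gene is the brightest probe of its GeneName. "At least" folds set the bright group against the lowest signal well above background on each dim array, or the gene's own signal there where that was higher. They hold under this background correction only, and with normexp some of these differences were smaller. RefSeq names come from assembly ARS-UCD2.0. The text names the variant genes tested except 1 that is not reported here, the 15 called replication-dependent genes with the largest differences, the 5 with the highest mean signal, and fixed list genes with the 3 largest called each way. Other genes were named after their values were seen. The members and lists were chosen with earlier results of these data known.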

Additional observations from a re-analysis of the deposited data

Results flagged for a closer look

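Among 88 sets of 4 arrays of one group, each examined at its highest and its lowest array, 7 had an array that stood apart from the other 3 beyond Dixon's limit, and chance alone flags about 1 in 20. In the arrays labelled pregnant, H2AFX was lowest on array 1, at 1.71, against 2.10 to 2.15 on the others. HIST1H2BB was highest on array 2, at 1.92, against 1.76 to 1.78. ATRX was lowest on array 4, at 3.14, against 3.73 to 3.78. In the arrays labelled non-pregnant, array 4 was lowest for H2AFV at 5.82 (others 6.47 to 6.58), for H3F3B at 6.41 (others 6.55 to 6.58) and for HIST1H2AH at -1.29 (others 0.46 to 0.76). SLBP was highest on array 3, at 3.88, against 3.61 to 3.62.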

How the results depend on the processing

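Over 22 other settings, 32 of 44 named genes kept their direction and side of the threshold in every one. Of 963 gene and setting pairs, 916 kept both, 29 lost the call, 5 gained it and 13 changed sign. Replication-dependent genes called lower numbered 20 to 26 in every setting over the 61 genes (21 to 26 when 1 array was left out), and 42 with the wider text rule. Those called higher numbered 0 with median scaling or no scaling, 12 with no filter on dim probes, and 0 to 2 with 1 array left out. Variant genes called higher numbered 2 with array weights and 1 to 2 with 1 array left out, the second being H1FX. Supply genes called higher numbered 2 with median scaling or none. The sign changed for H3F3A with array weights (0.02), the deposited table (0.01), gene means (0.14), the percentile over averaged probes (0.02, chosen after seeing the data) or detected probes (0.18), quantile normalization (0.16), non-pregnant array 3 and pregnant array 4 both out (0.06), and 1 array out (-0.24 to 0.21, with 0.09 without pregnant array 4). It changed for HIRA with detected probes (0.08) and without pregnant array 4 (0.11), and with quantile normalization for H2AFJ (0.24) and H3F3C (0.29). The cause was not tested. The median difference of all genes was 0.067 as reported, 0.11 in the deposited table, -0.30 with median scaling, -0.38 without scaling, 0.41 without the filter, 0.27 with detected probes and 0.19 with normexp. The share of calls that were higher was 51.2% as reported and 38.0%, 35.2% and 63.2% with median scaling, none and no filter. Same-numbered arrays correlated at 0.009, 0.075, 0.05 and 0.155 in their deviations, so the numbers did not pair them. With the replicate block, 12711 genes were called, 26 replication-dependent genes were lower, and of the named genes only ASF1A lost its call (-0.53, adjusted p 0.0760).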
